A study of Schizosaccharomyces pombe with 4 samples.

Results

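Centromere 1 of the fission yeast Schizosaccharomyces pombe and the chromatin on both sides of it were described from 226 of the 41551 genomic probes of a tiling microarray. The members are all probes whose names place them in a stretch of 69.9 kb on chromosome 1 that ends at 3804900, so they were chosen by position and not by a measured value. Histone H3 trimethylated at lysine 9 (H3K9me3) was mapped in exponentially growing cells of 4 strains, which the labels call WT, IRD1, IRD2 and IRD3, with 1 array per strain. All 4 titles carry the further tag REIID, and the labels spell out neither IRD nor REIID and name no other allele. Cells of all strains were grown at 32 °C and fixed with 3% paraformaldehyde, and precipitated DNA (Cy5) was compared with DNA of the whole-cell extract (Cy3), called input here. The title of the series concerns the replication of heterochromatin and its inheritance.

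A fission yeast centromere has a central core, on which the kinetochore forms over nucleosomes that hold the histone variant Cnp1 (CENP-A), and inverted repeats on either side of it. The outer repeats, called dg and dh, are packed into heterochromatin in which the methyltransferase Clr4 methylates H3K9, and RNA interference acting on their transcripts helps to recruit it. Clusters of tRNA genes and the inverted repeats called IRC lie at the borders and are known to limit the spread of the mark. In the RefSeq annotation of assembly ASM294v3 the order of genes runs from gua2, prm1, lys1, rpl1002 and per1 on the left through a tRNA gene for phenylalanine and IRC1-L into the repeat transcripts. It then passes tRNA genes for alanine, glutamate and isoleucine, the central core, the same 3 kinds of tRNA gene in reverse order, more repeat transcripts and IRC1-R, and continues on the right with emc5, rad50, sdh1 and azr1. The build of the probe positions is not stated, so this order is background and no probe was given a gene. The length around the repeats was compared only indirectly. The GC content of ASM294v3 best followed the input at a shift of -860 bp left of the repeats (Pearson correlation 0.61). Right of them the best shift was 4450 bp (0.68). By this measure the reference places about 5310 bp more between the flanks than the array does. No probe sequence is printed, because no file used here gives one.

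Values are log2 of immunoprecipitated over input signal, with the median genomic probe of each array at 0, and the input itself is given on the same centred log2 scale. With 1 array per strain no difference has a replicate check and no p-value is given. Lists of values without names follow the order WT, IRD1, IRD2, IRD3, or IRD1, IRD2, IRD3 for differences from WT. Quartiles are over probes, which describes the spread along a region and not the error between cultures. The SD of single probes, judged from neighbouring probes on the chromosome arms, was 0.27 (WT), 0.30 (IRD1), 0.26 (IRD2) and 0.26 (IRD3), and for the differences from WT was 0.22 (IRD1), 0.14 (IRD2) and 0.14 (IRD3). It is noise within an array and gives no error for a median over a region or for the spread between cultures. Of the 226 probes, 224 (WT), 215 (IRD1), 224 (IRD2) and 219 (IRD3) had a ratio, and 209 had one on all 4 arrays. Every missing ratio came from an outlier flag of the scanner software. None of the 226 probes was saturated, and all were well above background in both channels.

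The mark formed 2 blocks of high H3K9me3 on every array, with a gap of low signal between them. The left block ran from 3753300 to 3765600 with 42 probes over 12.3 kb, and the right block ran from 3778200 to 3786000 with 19 probes over 7.8 kb. The gap, where the central core is known to lie, held 41 probes from 3765900 to 3777900. The remaining 61 probes to the left and 63 to the right were the flanks. Blocks were drawn where the running median of 5 probes, taken over the mean of the 4 arrays, was at least 3.

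**Figure D1:**
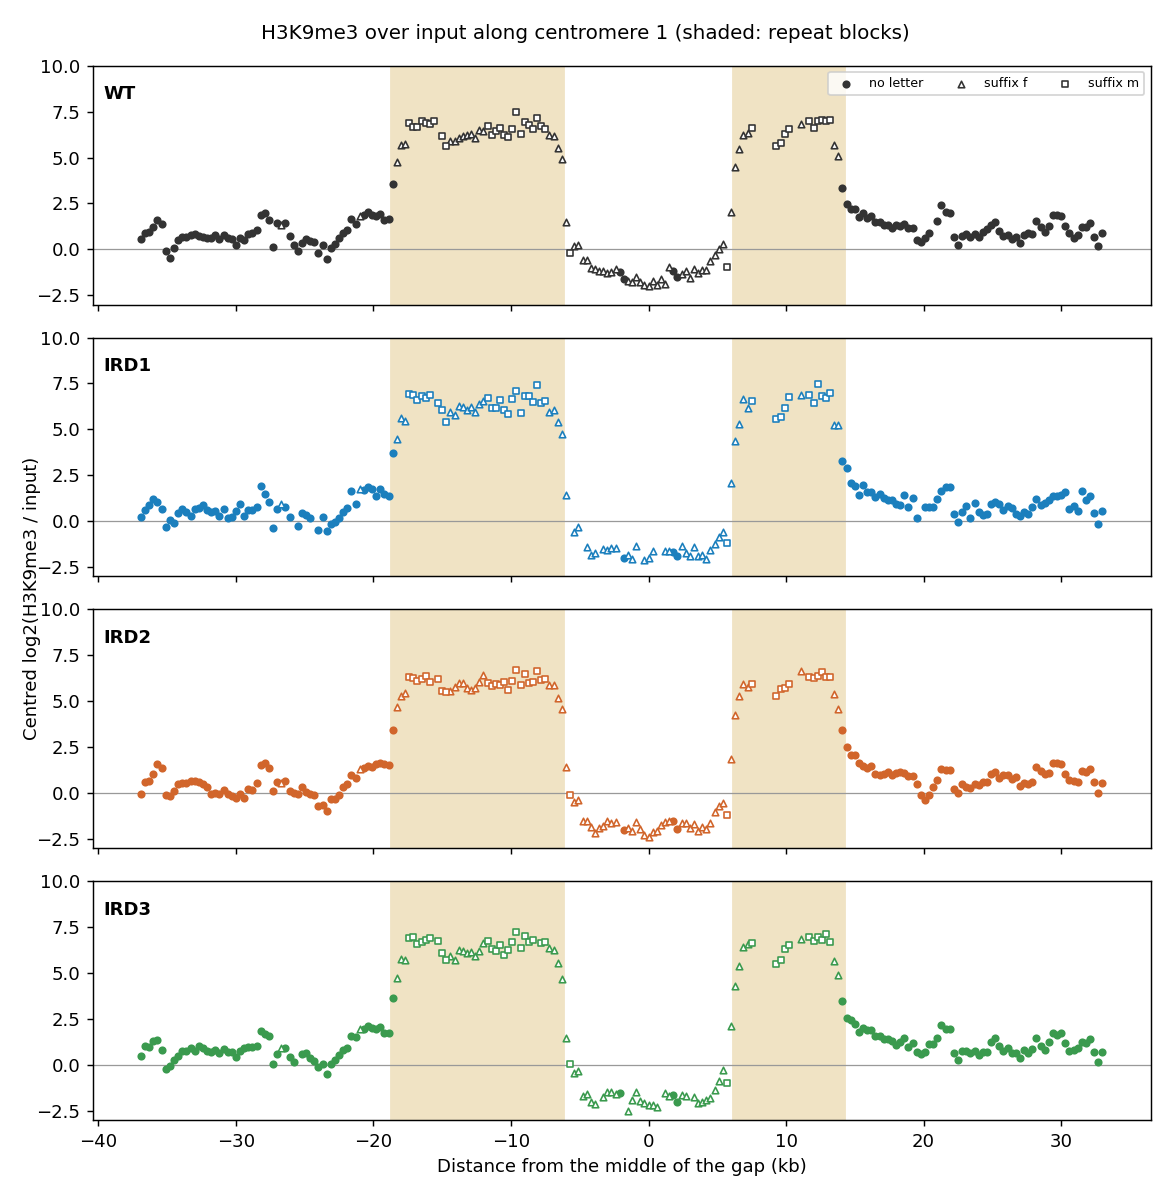
H3K9me3 over input (centred log2 ratio, y axis) of each probe against its distance in kb from the middle of the gap (x axis), 1 panel per array. Shading marks the 2 repeat blocks and marker shapes give the letter in the probe name. In all 4 panels the blocks reach above 6, the gap lies mostly below -1, and the flanks lie mostly between 0 and 2.

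The median level of the left block was 6.27 (WT), 6.24 (IRD1), 5.97 (IRD2) and 6.29 (IRD3). In WT this is 77.2 times the ratio of the median probe of the array, and in IRD2 it is 62.7 times. The right block stood at 6.31, 6.42, 5.94 and 6.55 in the same order. Both blocks were lowest on the IRD2 array. The quartiles over probes of the left block were 6.08 and 6.71 in WT and 5.62 and 6.17 in IRD2. The gap had a median of -1.19 (WT), -1.59 (IRD1), -1.64 (IRD2) and -1.65 (IRD3), so WT was the highest array there. Mitochondrial probes, whose DNA carries no histones, had medians of -1.66, -1.74, -1.98 and -2.20, beside -1.72, -1.75, -1.94 and -1.94 in the middle 4 kb of the gap. The left flank had a median of 0.72 (WT), 0.63 (IRD1), 0.35 (IRD2) and 0.84 (IRD3), and the right flank of 1.18, 0.94, 0.99 and 1.13.

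Most probes in the repeats carry a letter in their names that the files do not explain, and neighbouring copies of a repeat can share sequence. In the left block 25 of 42 names held an m and 16 an f, in the right block 11 of 19 held an m and 7 an f, and in the gap 35 of 41 held an f and 2 an m. The right flank had none. Across the genome, probes with an m had a median input of 1.91 (WT), 1.73 (IRD1), 1.71 (IRD2) and 1.73 (IRD3), whereas the m probes of the centromere 1 blocks had -0.01, -0.04, 0.23 and -0.10. Probes of the repeats need not be independent measurements, and a value there can combine several copies.

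Within the blocks the level was not flat. In the left block the m probes from 3754500 to 3757200 had medians of 6.82 (WT), 6.70 (IRD1), 6.22 (IRD2) and 6.76 (IRD3). The f probes next to them, from 3757500 to 3759900, had 6.19, 6.19, 5.77 and 6.16. The m probes further in, from 3760200 to 3764400, stood at 6.57, 6.55, 6.04 and 6.66. The dip in the middle of the left block therefore coincides with the probes named f. Over both blocks f probes had medians of 6.06, 5.93, 5.71 and 5.94, and m probes 6.67, 6.63, 6.10 and 6.70, so position and kind of probe cannot be told apart here. In the right block the m probes from 3779400 to 3782100 had 6.29, 6.18, 5.72 and 6.30, and those from 3783600 to 3785100 had 6.97, 6.83, 6.34 and 6.88. The 1 f probe between them, 3783000, read 6.80, 6.86, 6.63 and 6.84, so f probes were not low throughout. The highest probe of the blocks was at 3762300 in WT with 7.50, in IRD2 with 6.71 and in IRD3 with 7.23, and at 3784200 in IRD1 with 7.45. The right block is sparsely covered, since 3 steps between its probes exceed 300 bp and the widest, after 3779400, spans 1.8 kb.

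The input did not follow the ratio. Its median in the left block was 0.05 (WT), -0.01 (IRD1), 0.28 (IRD2) and -0.06 (IRD3), and in the right block it was -0.04, -0.12, 0.18 and -0.13. The IRD2 array thus had the highest input in both blocks, where its ratio was the lowest. In the gap the input was 0.51, 0.47, 0.58 and 0.56, in the left flank 0.43, 0.36, 0.49 and 0.44, and in the right flank 0.17, 0.19, 0.25 and 0.21. A weak input, below -2 on at least 1 array, was found at 5 positions. At 3736800 it was -2.19 (WT), -2.26 (IRD1), -2.30 (IRD2) and -2.02 (IRD3), and at 3737100 it was -2.81, -2.68, -2.46 and -2.34. At 3744600 it was -2.35, -2.09, -2.11 and -1.97. The other two sit at the inner borders: 3765900 had -2.02, -2.28, -2.03 and -1.84, and 3777900 had -1.84, -2.15, -1.82 and -1.68. The first probe of the gap on the left was thus below -2 on 3 arrays and that on the right on the IRD1 array alone, and on each array these are the dimmest input signals of the gap.

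**Figure D2:**
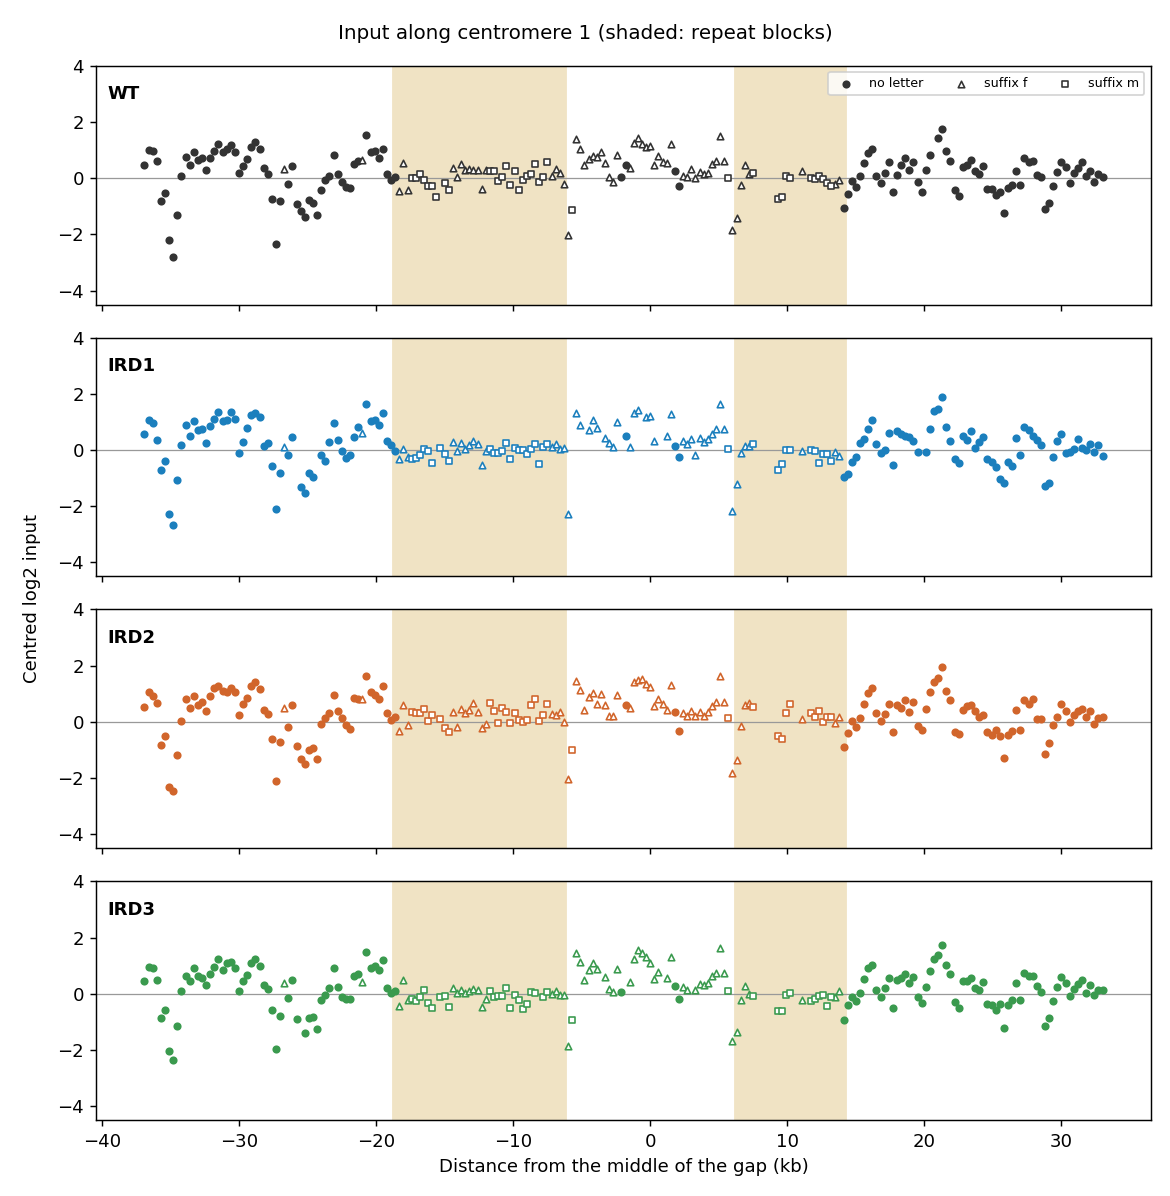
Input (centred log2 signal of the whole-cell extract channel, y axis) of each probe against its distance in kb from the middle of the gap (x axis), 1 panel per array. Shading marks the repeat blocks and marker shapes give the letter in the probe name. The input lies near 0 in the blocks and falls to between -1.68 and -2.28 at the first gap probe on each side.

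The 4 borders of the blocks differed in how sharply the mark ended, while their positions were nearly the same on the 4 arrays. At a running median of 3 every array had the same edges, at 3753300, 3765600, 3778200 and 3786000. At a running median of 2 the left inner edge stayed at 3765600 on all 4 arrays, and the left outer edge was at 3753300 except in IRD3, where it was 1 probe further out at 3753000. The right inner edge was at 3777900 except in IRD2, where it was at 3778200. The right outer edge was at 3786900 (WT), 3786600 (IRD1), 3786900 (IRD2) and 3787200 (IRD3). No edge at either threshold thus differed by more than 0.6 kb between arrays, and probes are 0.3 kb apart.

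At the left inner border the last block probes, 3765300 and 3765600, read 5.54 and 4.89 (WT), 5.41 and 4.75 (IRD1), 5.19 and 4.59 (IRD2), and 5.55 and 4.70 (IRD3). The first gap probe, 3765900, read 1.47, 1.45, 1.43 and 1.47, a fall between adjacent probes of 3.43 (WT), 3.30 (IRD1), 3.16 (IRD2) and 3.23 (IRD3). The next, 3766200, read -0.22 (WT), -0.09 (IRD2) and 0.04 (IRD3) and had no ratio in IRD1. At the right inner border the level dropped from 5.48, 5.28, 5.28 and 5.41 at 3778500 and 4.47, 4.35, 4.28 and 4.29 at 3778200 to 2.02, 2.06, 1.86 and 2.12 at 3777900 and -0.97, -1.18, -1.19 and -0.99 at 3777600. Between the last block probe and the first gap probe the fall there was 2.16 to 2.45, less than on the left. To the second gap probe it was 5.44 (WT), 5.47 (IRD2) and 5.28 (IRD3), more than the 5.11, 4.67 and 4.66 on the left, so the order of the inner borders depends on the probes compared. The probe at 3777900 was also the highest of the gap by the mean of the arrays.

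The outer borders ended on a shoulder, not at the level of the arms. On the left the level went from 4.75, 4.50, 4.68 and 4.74 at 3753600 and 3.56, 3.71, 3.46 and 3.63 at 3753300 to 1.67, 1.39, 1.51 and 1.75 at 3753000 and 1.62, 1.48, 1.59 and 1.77 at 3752700. The 3 kb outside the left block had medians of 1.81 (WT), 1.66 (IRD1), 1.46 (IRD2) and 1.94 (IRD3), and the next 3 kb had 0.36, 0.18, -0.20 and 0.25. The right outer border was the most gradual. Its probes read 5.06, 5.22, 4.59 and 4.91 at 3785700, then 3.34, 3.30, 3.43 and 3.47 at 3786000, then 2.45, 2.88, 2.50 and 2.58 at 3786300, and 2.22, 2.11, 2.09 and 2.44 at 3786600. The 3 kb outside the right block had medians of 1.78, 1.58, 1.48 and 1.93, and the next 3 kb had 1.18, 0.92, 0.97 and 1.15. At a running median of 1 the enriched run reached 3.3 kb beyond the left block in WT, 2.7 kb (IRD1), 2.4 kb (IRD2) and 3 kb (IRD3), and on the right 5.1, 3.9, 4.5 and 4.8 kb. Both shoulders were longest in WT at that threshold, and the right one was longer than the left on each array.

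Each flank as a whole, shoulder included, was set against windows of the same length on the chromosome arms. The median of the right flank was higher than all 622 windows in WT, 609 (IRD1), 621 (IRD2) and 612 (IRD3). The left flank was exceeded by 3 of 647 windows in WT, 3 of 637 in IRD1, 80 of 646 in IRD2 and 1 of 637 in IRD3. On the IRD2 array the left flank thus stood closer to the arms than on the others. Farther than 6 kb from the blocks the medians were 0.69, 0.63, 0.34 and 0.79 on the left and 0.90, 0.83, 0.74 and 0.89 on the right, beside window medians between -0.01 and -0.04. Between the shoulder and that distance the left flank of IRD2, at -0.20 over 3 kb, lay below the median arm probe of that array, at -0.02. Arm windows of 3 kb were not computed, so whether -0.20 lies outside the spread of the arms is not shown. Beyond the shoulders the highest WT probes were chosen after their values were seen. On the left it was at 3744000 with 1.97 (WT), 1.47 (IRD1), 1.63 (IRD2) and 1.69 (IRD3). On the right it was at 3793200 with 2.44, 1.64, 1.34 and 2.20.

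The IRD arrays were compared with the WT array at this centromere probe by probe and by region. With 1 array per strain this describes arrays and does not settle whether the strains differ. The 3 comparisons share the WT array, so a peculiarity of that array would appear in all of them. No probe was higher than WT by 2-fold or more (a difference of at least 1) in any IRD strain, where the background over all genomic probes was 0.595% (IRD1), 0.536% (IRD2) and 0.657% (IRD3). Lower by 2-fold or more were 0 of 213 probes in IRD1, where the background was 0.0996%. In IRD2 there were 2 of 222, against a background of 0.323%, and in IRD3 there were 5 of 217, against 0.112%, all 5 in the gap. The median difference over all members was -0.17 (IRD1), -0.35 (IRD2) and -0.01 (IRD3), beside -0.08, -0.03 and -0.06 over all genomic probes.

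**Figure D3:**
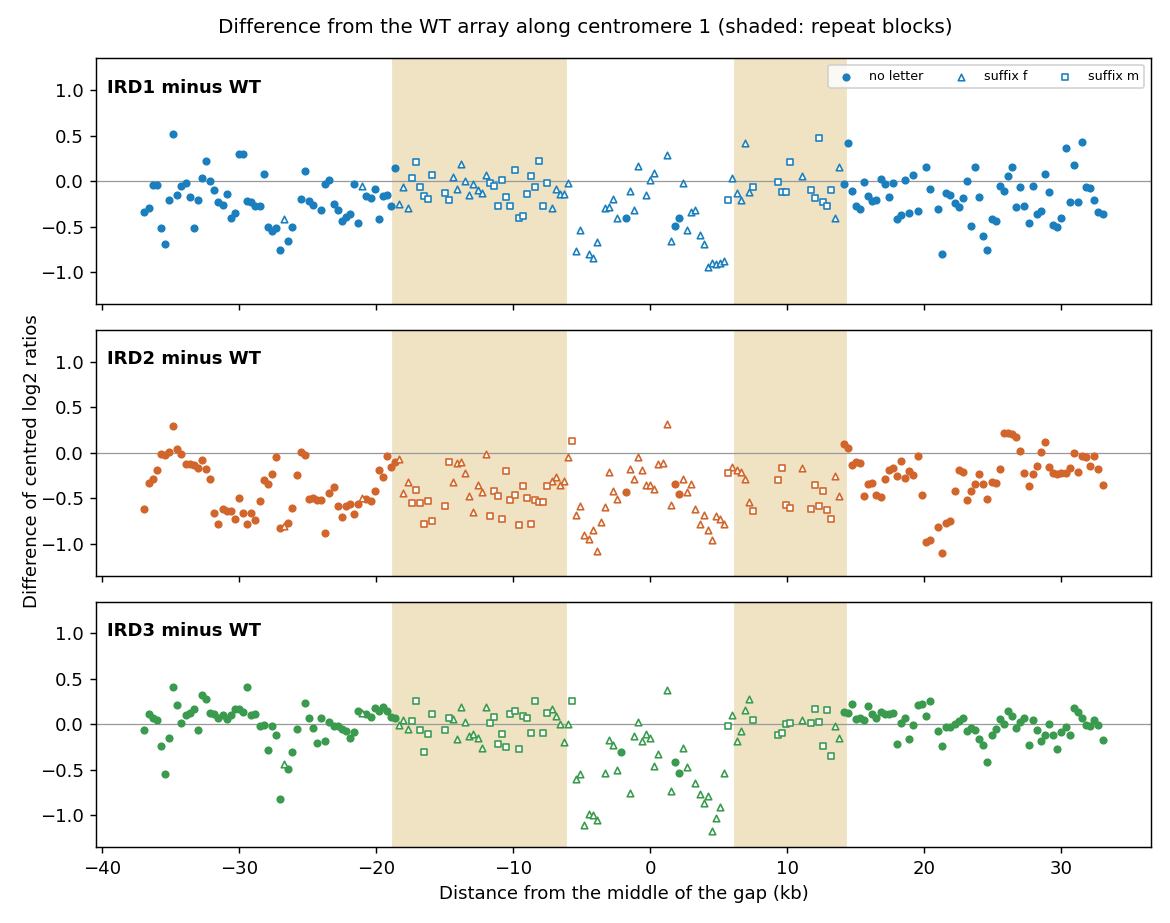
Difference of the centred log2 ratio from WT (y axis) of each probe against its distance in kb from the middle of the gap (x axis), 1 panel per IRD strain. Shading marks the repeat blocks and marker shapes give the letter in the probe name. In each panel a group of probes inward of both ends of the gap lies low, down to -0.94 (IRD1), -1.08 (IRD2) and -1.17 (IRD3), the first gap probe on each side lies between -0.16 and 0.10, and the blocks lie near 0 in IRD1 and IRD3 and near -0.4 in IRD2.

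In the repeat blocks IRD2 was the lowest of the 4 arrays when each was centred on its median genomic probe. Over both blocks its ratio was lower than WT in 58 of 59 probes, with a median difference of -0.43, equal to 0.742 of the WT ratio, and quartiles of -0.56 and -0.28. These are averages over a culture, with 1 array per strain. Fewer cells with the mark, less of it per cell and a difference between arrays or in their normalization cannot be told apart. On the IRD1 array 42 of 59 probes were lower than WT, with a median of -0.09, and on the IRD3 array 26 of 58 were lower, with a median of 0.01. Over all genomic probes the IRD1 median was -0.08, with quartiles of -0.27 and 0.12, so its block value is close to that of the whole array. The share of all genomic probes lower than WT was not computed, here or for the counts of lower probes that follow. The left and right blocks gave nearly the same values, -0.43 and -0.42 (IRD2), -0.09 and -0.10 (IRD1), and 0.01 and 0.01 (IRD3). Set against the other IRD strains, which do not involve the WT array, IRD2 was lower than IRD1 in 55 of 60 probes, by a median of 0.33, and lower than IRD3 in 57 of 59, with a median difference of -0.45. IRD1 minus IRD3 was -0.05.

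The 2 channels of the IRD2 array moved in opposite directions in the blocks. Its input was higher than WT in 51 of 59 probes, with a median of 0.16, and its immunoprecipitated signal alone had a median difference of -0.24. In probes with an m in the name the ratio differed by -0.54, the input by 0.23 and the immunoprecipitated signal by -0.26, and in f probes by -0.31, 0.10 and -0.14. The 2 block probes without a letter, at the outer ends of the blocks, differed in ratio by -0.10 and 0.10. In IRD3 the median difference of the blocks was -0.14 in the input and -0.11 in the immunoprecipitated signal, beside 0.01 in the ratio. The part that the input has in the IRD2 difference was not tested.

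**Figure D4:**
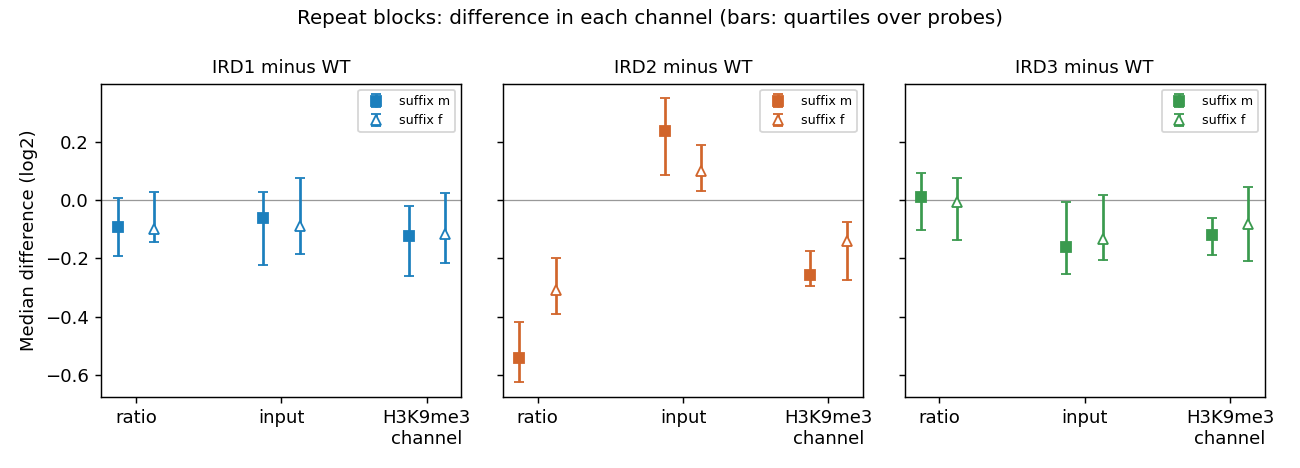
Median difference from WT (log2, y axis) in the repeat blocks for the ratio, the input and the immunoprecipitated (H3K9me3) channel (x axis), 1 panel per IRD strain. Squares are probes with an m and triangles probes with an f in the name, and bars are quartiles over probes. In IRD2 the ratio lies at -0.54 and -0.31 with the input above 0, and in IRD1 and IRD3 the ratio medians lie between -0.10 and 0.01.

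The blocks of the other centromeres gave similar values. By the same rule those of centromere 2 differed from WT by -0.07 (IRD1), -0.41 (IRD2) and -0.04 (IRD3), and the blocks of centromere 3 by -0.13, -0.48 and -0.08. When arrays were shifted to an equal level over the blocks of centromeres 2 and 3, the left block of centromere 1 in IRD2 differed from WT by 0.09 and the right block by 0.10. Centred on the mitochondrial probes in place of all genomic probes, they differed by -0.11 and -0.09. Loess within each array gave -2.38 and -2.51 for IRD2 and -0.48 and -0.42 for IRD3, so both the size and the sign of the block differences rest on the normalization. Whether block probes of different centromeres share sequence was not checked, because no probe sequence is given. If they do, the other centromeres are not separate observations, and the shift to their level brings centromere 1 toward WT in part by construction.

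With arrays centred on the median genomic probe, the gap was lower than WT in all 3 IRD strains, more so in its outer parts than in its middle. Over the whole gap the median difference was -0.40 in IRD1 with 29 of 34 probes lower, -0.43 in IRD2 with 38 of 40 lower, and -0.50 in IRD3 with 32 of 37 lower. The quartiles of the difference were -0.68 and -0.16 (IRD1), -0.70 and -0.22 (IRD2), and -0.76 and -0.17 (IRD3), all below 0. Centred on the mitochondrial probes the gap differed by -0.31 (IRD1), -0.10 (IRD2) and 0.05 (IRD3), and with equal levels at centromeres 2 and 3 by -0.29, 0.09 and -0.43. The direction was therefore kept under both in IRD1 and turned under 1 of them in IRD2 and in IRD3. Cut into parts of 4 kb, the left part of the gap differed by -0.47, -0.60 and -0.53, the right part by -0.56, -0.65 and -0.64, and the middle part by -0.13, -0.29 and -0.18. In the middle, at the lowest probe of the gap by the mean of the arrays, 3771900, the level was -2.01 (WT), -1.99 (IRD1), -2.36 (IRD2) and -2.16 (IRD3). The first gap probe on the left, 3765900, differed from WT by only -0.02, -0.04 and 0.00.

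Runs of at least 5 consecutive probes lower than WT by at least 0.5 were looked for along the chromosomes, a rule chosen after the data were seen. Such runs held 12 of 213 members in IRD1 (5.63%, background 0.446%), 44 of 222 in IRD2 (19.8%, background 1.69%) and 15 of 217 in IRD3 (6.91%, background 0.128%). In IRD1 and IRD3 all of them formed 2 runs, 1 at each end of the gap. Runs higher than WT held no member in any strain, with backgrounds of 0.726% (IRD1), 0.658% (IRD2) and 0.754% (IRD3). At the left end the run went from 3766500 to 3768600 in IRD2 and IRD3 and to 3768000 in IRD1. At the right end it went from 3775200 to 3777300 in IRD2 and IRD3 and began at 3775500 in IRD1. In IRD2 and IRD3 these stretches lay between 0.9 and 3 kb inward of the last block probe.

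In the left stretch of IRD3 the median level was -0.79 in WT and -1.70 in IRD3, and IRD1 and IRD2 had -1.44 and -1.66 over the same probes. In its right stretch WT had -0.86, IRD1 -1.47, IRD2 -1.65 and IRD3 -1.76. That WT is the highest array follows from how the stretches were chosen. The probe at 3776400 read -0.64 (WT), -1.54 (IRD1), -1.60 (IRD2) and -1.81 (IRD3), and that at 3768000 read -1.09, -1.75, -2.16 and -2.14. Over the low stretches of each strain, left and right, the median input difference from WT was 0.02 and 0.14 (IRD1), 0.07 and 0.12 (IRD2), and 0.08 and 0.14 (IRD3). The immunoprecipitated signal differed by -0.63 and -0.69, by -0.63 and -0.59, and by -0.67 and -0.63. The channels moved in opposite directions, with the larger difference in the immunoprecipitated one. Over the whole gap the input was higher than WT in 23 of 34 probes (IRD1), 35 of 40 (IRD2) and 36 of 37 (IRD3), and its part in the difference was not tested.

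The sides of the gap mirrored each other. Probes at equal distance from its middle gave a Pearson correlation of 0.93 in WT over 20 pairs, 0.94 in IRD1 over 14, 0.91 in IRD2 over 19 and 0.90 in IRD3 over 16, and the median difference between the sides was at most 0.08 in size. The differences from WT mirrored each other as well, with correlations of 0.69 (IRD1), 0.75 (IRD2) and 0.83 (IRD3). The input of the sides correlated at 0.73 to 0.76 but was lower on the right, by a median difference of -0.37 (WT), -0.41 (IRD1), -0.40 (IRD2) and -0.35 (IRD3). The middle was set from block edges drawn on the ratio itself, so the first gap probes of the sides were paired by construction. In WT they read 1.47 and 2.02, the highest of each side, and no correlation was computed without them. These are descriptions across probes of 1 array, and 35 of the 41 gap probes have an f in the name, so probes on opposite sides may share sequence. If they do, the low stretches at both ends are not separate observations.

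**Figure D5:**
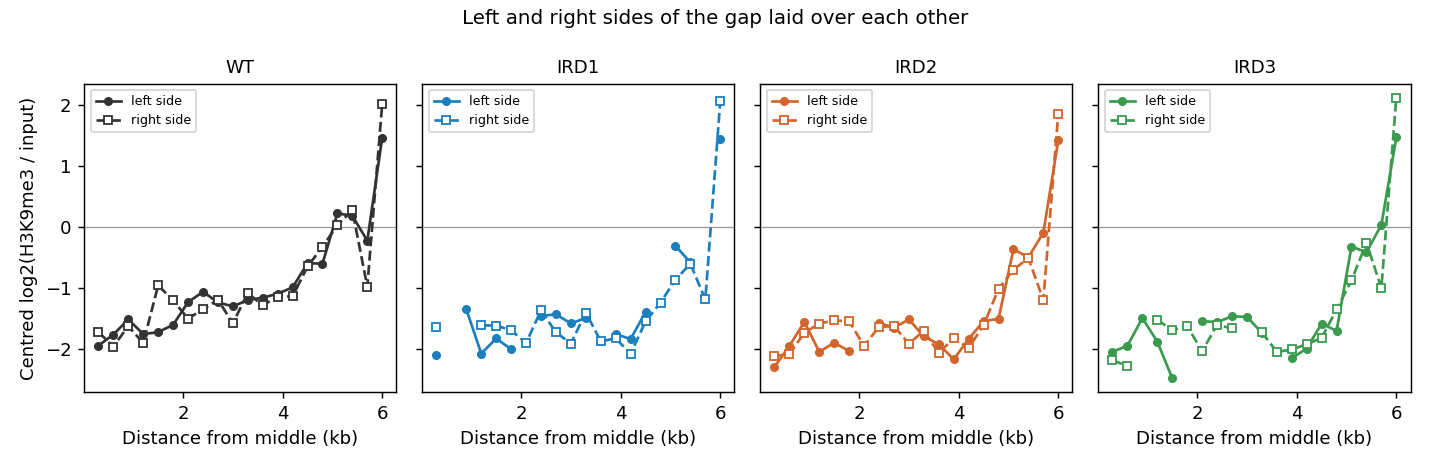
Centred log2 ratio of H3K9me3 over input (y axis) in the gap against the distance in kb from its middle (x axis), with the left side as filled points and the right side as open squares, 1 panel per array. Only positions with a counterpart on the other side are drawn, and lines break where a probe has no ratio. From about 4 to 5.5 kb out WT rises from about -1 to above 0 on both sides, while the IRD arrays stay below 0 there.

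The same parts were compared at the other centromeres. At centromere 2 the outer parts of the gap, each a section as long as the middle one, differed by -0.05 (IRD1), -0.21 (IRD2) and -0.25 (IRD3). The IRD1 value there, with 11 of 17 probes lower, is smaller in size than the -0.08 of all genomic probes. At centromere 3 they differed by -1.81, -1.76 and -1.70. At centromere 1 the left and right parts joined differed by -0.53, -0.62 and -0.54. Centromere 1 thus lay between the others in each strain, and the differences between centromeres were not tested. Centred on the mitochondrial probes, whose own median differed from WT by -0.55 in IRD3 and by -0.33 in IRD2, the left and right parts of the centromere 1 gap in IRD3 differed from WT by 0.01 and -0.09, and in IRD2 by -0.27 and -0.32.

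With the same centring IRD2 was also the lowest array in the left flank. The left flank differed from WT by -0.22 in IRD1 with 50 of 59 probes lower, by -0.49 in IRD2 with 57 of 61 lower, and by 0.07 in IRD3 with 24 of 60 lower. The right flank differed by -0.19 with 49 of 61 lower, -0.22 with 54 of 62 lower, and 0.01 with 29 of 62 lower. Centred on the mitochondrial probes the flanks of IRD2 differed by -0.16 on the left and 0.10 on the right, and those of IRD3 by 0.62 and 0.56. With equal levels at centromeres 2 and 3 those of IRD2 differed by 0.03 and 0.30, so the direction in IRD2 rests on the centring. IRD2 alone had low runs in the flanks, from 3740100 to 3741600 at -0.65, from 3742200 to 3743400 at -0.66, from 3749100 to 3750600 at -0.59 and from 3792000 to 3793800 at -0.89, and 1 in the left block from 3755100 to 3756900 at -0.58. In the run at 3792000 to 3793800 the median level was 1.77 (WT), 1.23 (IRD1), 0.72 (IRD2) and 1.47 (IRD3), its immunoprecipitated signal differed by -0.67 in IRD2 and its input by 0.17. That the runs were absent in IRD1 and IRD3 was not tested as a difference between strains.

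The largest single-probe differences fell in a few places. The 3 largest decreases of IRD1 were the adjacent gap probes 3776100, 3776400 and 3776700 with -0.94, -0.90 and -0.91. Those of IRD2 were 3793200 in the right flank with -1.10, 3768000 in the gap with -1.08 and 3792000 in the right flank with -0.98. Those of IRD3 were all in the gap, at 3776400 with -1.17, 3767100 with -1.10 and 3768000 with -1.06. The largest increase of IRD1 was at 3737100 with 0.52, followed by 3784200 with 0.47 and 3803400 with 0.43. At 3784200 the input was -0.47 in IRD1 and 0.07 in WT, and at 3803400 it was 0.07 and 0.56. The input was thus lower in IRD1 at both, by about as much as the ratio was higher, and its part was not tested. In IRD2 the largest increases were 3773100 with 0.32, 3737100 with 0.30 and 3797700 with 0.22, and in IRD3 they were 3737100 with 0.41, 3742500 with 0.41 and 3773100 with 0.38. The probe at 3737100, among the 3 largest increases of each strain, is the one with the weakest input of all members on each array.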

How the data were processed

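Per the labels, chromatin sheared to 400 to 600 bp was precipitated with antibody ab8898, and both DNAs were amplified by random-primed PCR before labelling. Per the file headers, the spot intensity values come from version 12.0.3.1 of Agilent Feature Extraction, and the deposited processed signals had their background subtracted and their dyes balanced. The deposited files also hold a log10 ratio, used only as a check, and the authors' value table holds an uncentred linear ratio of red over green, used as an alternative. It differed from the arrays' own processed signals by at most 0.013 on the log2 scale. In the IRD1 and IRD3 files signals are rounded to 3 significant digits. All 4 arrays share 1 slide and 1 scan, and dyes were not swapped. Strains were taken from the titles, because the labels of IRD1 and IRD3 have genotype and antibody exchanged.

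Each log2 ratio was centred on the median of its array's genomic probes. Control spots, outlier-flagged spots and probes with input not well above background were left out. Runs up to 3 kb apart were joined into blocks. Region medians, edges and counts were computed with Python 3.11.15, numpy 2.4.6 and pandas 2.3.3, loess with statsmodels 0.14.6, and normexp with limma 3.58.1 in R 4.3.3. The region and edge rules were tested on simulated data with evenly spaced probes, sharp edges and independent noise. The sparse right block and its gradual outer border differ from that setting, so the simulation does not show how the rules perform there. The planned normexp used median signals, since the files give no mean signals. Named probes are the last 2 inside and the first 2 outside each edge, the gap's extremes, the 3 largest differences per strain and direction, and probes with weak input. Members, regions and lists were chosen with earlier results of these data known. Depth has no meaning for arrays, and their number, 1 per strain, limits the precision.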

Additional observations from a re-analysis of the deposited data

How the results depend on the processing

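Of 511 values recomputed under an alternative for 98 results, 408 stayed within the noise of neighbouring probes, 1 probe step or 1.5 times a count, 93 moved further and 10 turned in sign from a value beyond that noise. Of 283 recomputed differences between arrays 29 changed sign in all, 19 of them from a value within that noise, at most 0.096 in size. None moved with the authors' value table, outlier spots kept, weak input removed, means in place of medians, edges from the WT array or a running median of 3 probes. The authors' table holds nearly the same ratios, and the edges from the WT array were the same as those used. The 41 and 35 values of these 2 settings were thus bound to stay and say nothing about robustness. The cause was not tested for those that moved, apart from the fewer probes left without a letter.

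Loess within arrays gave block levels of 3.96 (WT), 3.78 (IRD1), 1.46 (IRD2) and 3.43 (IRD3) on the left and 4.08, 3.90, 1.65 and 3.61 on the right, a left flank in IRD3 of 0.41, and right flanks of 0.62 (WT), 0.46 (IRD2) and 0.62 (IRD3). It put the blocks of IRD2 at -2.38 and -2.51 from WT and those of IRD3 at -0.48 and -0.42. IRD1 minus IRD2 became 2.19 and 2.28, IRD1 minus IRD3 0.32 and 0.22, and IRD2 minus IRD3 -1.95 and -2.01.

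Without probes bearing f or m, 1 probe was left in each block, so edges could not be computed. Levels were then 3.56, 3.71, 3.46 and 3.63 in the left block, 3.34, 3.30, 3.43 and 3.47 in the right block, and -1.90 in IRD1 and -1.94 in IRD2 in the gap. Differences from WT in the left block were 0.15 in IRD1 and -0.096 in IRD2, and in the right block IRD2 reversed to 0.098. The left 4 kb of the gap gave -0.31 for IRD3 and the right 4 kb gave -0.45 for IRD2, each from 1 probe. Every probe of the low stretches at the ends of the gap bears an f, so none of them is left under this setting. Between strains, IRD1 minus IRD2 reversed to -0.13 in the right block, and IRD2 minus IRD3 was -0.17 and -0.034. Input was 0.050 for the gap in IRD3 and -1.08, -0.96, -0.88 and -0.95 in the right block.

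Centred on mitochondrial probes, the IRD2 differences were -0.16 in the left flank, -0.11 and -0.095 in the blocks, -0.10 in the gap, -0.27 and -0.32 in its outer 4 kb on the left and right and, reversed, 0.10 in the right flank. IRD3 was at 0.62 and 0.56 in the flanks, 0.56 and 0.56 in the blocks, 0.050 in the gap and 0.013 in its left 4 kb, both reversed, and -0.091 in its right 4 kb. With equal levels at centromeres 2 and 3, IRD2 reversed to 0.030 and 0.30 in the flanks, 0.086 and 0.098 in the blocks and 0.089 in the gap, and was at -0.076 and -0.13 in its outer 4 kb on the left and right. The immunoprecipitated channel alone, added after seeing the data, gave IRD2 -0.29 in the left flank, -0.26 and -0.12 in the blocks, -0.27 in the gap and -0.50 in its right 4 kb, and IRD3 -0.14 in the left block and -0.47 in the right 4 kb.

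Normexp gave IRD3 levels of 0.53 in the left flank and -1.92 in the gap, -0.60 for IRD2 in the right block, -0.72 for IRD3 in the left 4 kb of the gap, -0.54 for IRD2 minus IRD3 in the right block, and input of 0.91 for the left flank in IRD2 and 1.003 for the gap in IRD3. With 3 probes trimmed at each edge the right block of IRD2 was at -0.57. At a threshold of 1 the left outer edge was at 3750000, 3750600, 3750900 and 3750300 and the right one at 3791100, 3789900, 3790500 and 3790800. At 3 the right outer edge was at 3786000 on each array. A running median of 9 put the left outer edge of IRD3 at 3752400. Probes lower by 2-fold numbered 1 in IRD1 and 7 in IRD2 with normexp, 56 in IRD2 and 3 in IRD3 with loess, and 1 in IRD2 and 0 in IRD3 without f or m. At 1.5-fold they were 18, 53 and 15. No share over all genomic probes was computed for these counts, so they do not show whether the centromere stands out. No paired analysis was possible because each strain has 1 array.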
